A study of Homo sapiens with 24 samples.

Results

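The S100 genes described here were the 10 genes of the read-count table with the symbols S100P, S100A4, S100A6, S100A8, S100A9, S100A10, S100A11, S100A13, S100A14 and S100A16, of 14493 genes in all. They were measured by RNA-seq in SKBR3 cells (SKBr3 in the labels), an established human breast cancer cell line that overexpresses HER2, in 24 libraries of 8 groups with 3 replicates each. De novo lipogenesis was inhibited with ND-646, an inhibitor of acetyl-CoA carboxylase, or TVB-3166, an inhibitor of fatty acid synthase, each at 250 nmol/L. The established inducers of therapy-induced senescence (TIS) were the DNA-cleaving drug bleomycin at 10 µmol/L, the topoisomerase poison doxorubicin at 10 nmol/L, the CDK4/6 inhibitor palbociclib (Palboclib in the labels) at 1 µmol/L and the Aurora A kinase inhibitor alisertib at 500 nmol/L. All 6 drugs were refreshed on day 3 and the cells were collected on day 7, and untreated cells were collected on day 0 and on day 7. The labels give a refeed on day 3 for every drug group and none for the untreated day-7 cells. In comparisons with day-7 cells, feeding and drug therefore cannot be told apart. In comparisons with day-0 cells, the drug cannot be told apart from feeding or from 7 days of culture. Rose and fell below describe differences between groups. All groups come from 1 cell line, and the labels do not say that replicates were separate cultures, so the p-values measure the spread between these libraries. The comparisons ask how each S100 gene differed between drug-treated and untreated cells, and whether lipogenesis inhibitors differed from the other drugs.

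S100 proteins are small calcium sensors with paired EF-hand loops that usually work as dimers. Calcium binding opens a surface through which they grip partner proteins such as annexins, cytoskeletal proteins and enzymes, and several are also released from cells and bind receptors such as RAGE, the product of AGER. In breast and other epithelial cancers S100P and S100A4 are known for their links to motility, whereas S100A8 and S100A9 form calprotectin, an alarmin best known from neutrophils and monocytes. S100A7 to S100A9 also belong to the inflammatory and barrier genes of epithelia.

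Of the 10 genes, 9 lie on chromosome 1 within the S100 gene cluster and its flank, and S100P lies on chromosome 4 (GRCh37, 6695605 to 6698897, plus strand). S100A10 begins the chromosome 1 series at 151955391 and S100A13 ends it at 153603836, while S100A9 (153330330 to 153333499, plus strand) and S100A8 (153362508 to 153363549, minus strand) are near neighbours. Exons of S100A13 shared 10.6% of their bases with S100A1 on the opposite strand and 24.2% with the gene ENSG00000271853 on its own strand, and because the use of strand in counting is not stated, the S100A13 values are uncertain to that extent. Transcripts of the 10 genes are short, 408 to 1172 bases in the annotation, and 8 of 10 are under 1 kb.

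Sequence before the start site is shown for the 3 genes whose levels differed most between drugs, S100P, S100A9 and S100A8, as the 250 bases upstream of the most upstream RefSeq start, read 5′ to 3′ on the strand of the gene. They were taken from RefSeq promoter sequences of GRCh38.p14 and matched without mismatch at 1 place each to GRCh37, at chr4:6695355-6695604 (plus strand) for S100P, chr1:153330080-153330329 (plus strand) for S100A9 and chr1:153363665-153363914 (minus strand) for S100A8. Capitals mark matches to the letters searched.
S100P: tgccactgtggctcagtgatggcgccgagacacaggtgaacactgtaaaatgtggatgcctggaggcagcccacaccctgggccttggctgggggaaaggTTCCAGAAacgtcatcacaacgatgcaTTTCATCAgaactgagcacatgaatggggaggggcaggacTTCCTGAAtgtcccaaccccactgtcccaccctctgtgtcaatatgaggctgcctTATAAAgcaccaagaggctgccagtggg
S100A9: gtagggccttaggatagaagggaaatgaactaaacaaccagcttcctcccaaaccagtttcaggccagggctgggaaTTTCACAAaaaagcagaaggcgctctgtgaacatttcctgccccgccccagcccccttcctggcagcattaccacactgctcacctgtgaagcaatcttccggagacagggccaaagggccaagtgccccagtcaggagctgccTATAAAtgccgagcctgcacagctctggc
S100A8: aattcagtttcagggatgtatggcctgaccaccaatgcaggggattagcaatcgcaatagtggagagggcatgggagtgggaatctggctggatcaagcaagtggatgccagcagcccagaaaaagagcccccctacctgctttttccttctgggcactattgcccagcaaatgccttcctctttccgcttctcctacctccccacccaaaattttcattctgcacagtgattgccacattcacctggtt

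Both S100P and S100A9 hold a TATA box (TATAAA), 28 and 29 bases before the start, a match present in 10.7% of 35116 windows of the same length. A C/EBP pattern (TTNNGNAA), held by 33.2% of windows, was found at 150 and 83 bases in S100P and at 173 bases in S100A9. S100P also holds an ATF4-C/EBP pattern (TGATGNAA, here on the opposite strand) 123 bases before the start, which 3.14% of windows hold. None of the 8 patterns searched was found in the window of S100A8, which is the most upstream of its 3 listed starts. That window ends at 153363665, upstream of the annotated start at 153363549, so the bases next to that start were not part of it. The other patterns were AP-1 (TGANTCA), NF-kB (GGGNN followed by TNNCC), STAT (TTCNNNGAA), a sterol response pattern (TCACNCCAC) and an antioxidant response pattern (TGACNNNGC), each searched on both strands, in 6.57%, 19.7%, 6.57%, 0.883% and 10.9% of windows. These matches describe letters and do not show binding.

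Total counts were 29405121 to 44316330 per library, and levels are given as CPM (counts scaled to library size) after TMM normalization. Of 7 listed breast epithelial markers, CDH1 was not in the table and the other 6 were. Their summed level was 17017 to 20054 CPM in day-0 libraries and lower without overlap with bleomycin (9941 to 13413), doxorubicin (11762 to 13699), palbociclib (13714 to 14604), alisertib (12870 to 14713) and TVB-3166 (13686 to 16896). Untreated day-7 libraries were at 14244 to 17080 CPM, a range that ND-646, TVB-3166, palbociclib and alisertib libraries overlapped. With each drug 2 or 3 of the 6 were called lower (all genes 18.8% to 27.7%), and 1 was called higher with TVB-3166. The part of this in the S100 differences was not tested. None of 8 myeloid markers, PTPRC, LYZ and CD14 among them, was in the table, and of 5 fibroblast markers it held COL1A1 at 6.46 to 15.2 CPM. The lowest count in the table was 1. Whether genes without counts in some libraries were left out is not stated in the sources used here. Absence from the table therefore does not show the level of a gene in any 1 group. One library stood apart. In ND-646 replicate 1, genes with transcripts under 1 kb were higher than in the other ND-646 libraries, with a median log2 difference of 0.82, and genes over 4 kb were lower, with a median of -0.38. All 10 S100 genes were also higher in that library, with a median of 1.14. ND-646 results are therefore given with and without it where it changes a call. Calls that moved in a fit corrected for transcript length, added after the data were seen, are given as well. In bulk RNA, a change in the number of expressing cells and a change in RNA per cell cannot be told apart.

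**Figure D1:**
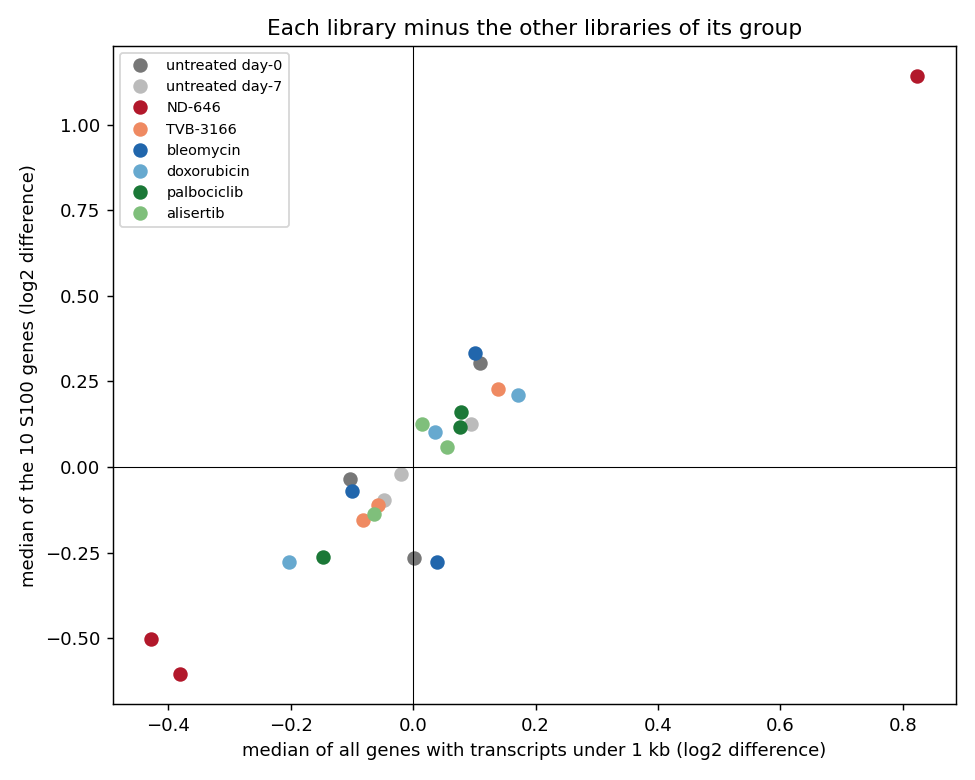
Each point is 1 of 24 libraries, coloured by group. The x axis gives the median log2 difference of genes under 1 kb from the other libraries of the same group, and the y axis the median of the 10 S100 genes. ND-646 replicate 1 lies at 0.82 and 1.14, apart from all others.

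Per kilobase of transcript, S100A6 had the highest level of the 10 in untreated day-0 cells, at 2462 ± 343 CPM per kb (SD, n = 3). S100A16 followed at 847 ± 59.4 CPM per kb, and S100A8 was lowest at 24.2 ± 3.68. S100P was at 185 ± 53.5 CPM per kb in day-0 cells, at 2771, 908 and 1086 with ND-646 and at a mean of 756 with TVB-3166. Summed over the 10 genes, levels were 3663 ± 363 CPM at day 0, 3438 ± 379 with TVB-3166 and 3721 ± 1921 with ND-646. The ND-646 mean rested on replicate 1, at 5937 CPM, while the other libraries had 2545 and 2680 CPM, below every day-0 library. In untreated day-7 cells the sum was 2827 ± 141 CPM, also without overlap with day-0 cells. The sum was lower with every other drug, at 2271 ± 220 with bleomycin, 1933 ± 139 with alisertib, 1707 ± 173 with palbociclib and 1675 ± 201 with doxorubicin, without overlap with the day-0 libraries.

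**Figure D2:**
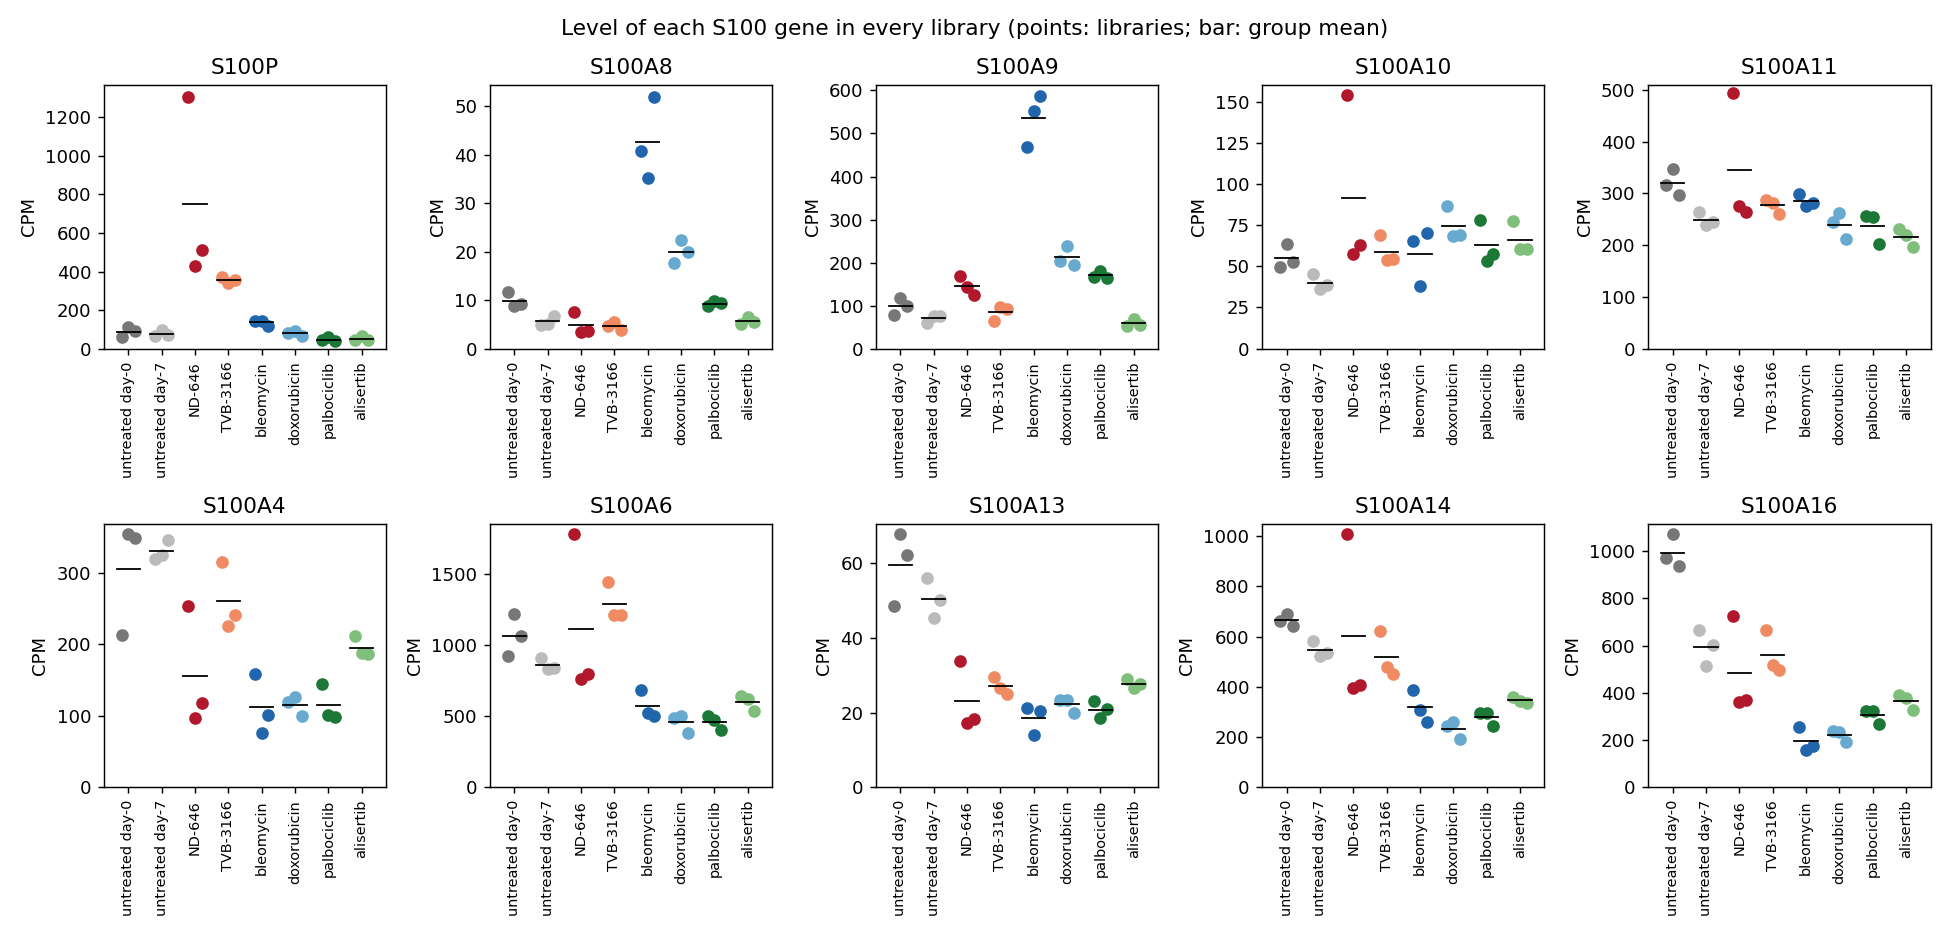
Points are single libraries, 3 in each of 8 groups on the x axis, bars are group means, and the y axis is the level in CPM on a linear scale from 0. S100P stands high in ND-646 and TVB-3166 cells, S100A8 and S100A9 in bleomycin cells, and S100A16 is highest in untreated day-0 cells.

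Of the 10 genes, edgeR's quasi-likelihood test at an adjusted p under 0.05 called 2 higher and 3 lower in ND-646 cells than in untreated day-0 cells, where 19.1% of all genes tested were higher and 18.8% lower. With TVB-3166 it was 1 higher and 4 lower (all genes 27.4% and 27.7%). Bleomycin gave 3 higher and 5 lower (24.1% and 25.3%), and doxorubicin 3 higher and 6 lower (23.7% and 24.8%). With palbociclib 1 was higher and 7 were lower (26% and 27.2%), and with alisertib 0 were higher, also at an unadjusted p and with DESeq2, and 9 were lower (17.7% and 19.6%). The share of members called lower was above that of all genes with all 6 drugs, from 3 of 10 with ND-646 to 9 of 10 with alisertib. With ND-646 and TVB-3166 these counts lay near the background. Leaving out 1 library gave 1 to 6 lower with ND-646 and 3 to 6 with TVB-3166. Across the 10 genes the median log2 fold-change was -0.06 with ND-646, -0.22 with TVB-3166, -0.53 with bleomycin, -0.81 with doxorubicin, -1.07 with palbociclib and -0.79 with alisertib, whereas the median of all genes lay between -0.01 and 0.02.

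Untreated day-7 cells served as a second reference, against which the counts lower for both lipogenesis inhibitors lay near the shares of all genes. ND-646 had 3 members higher and 2 lower (all genes 17.2% and 17.1%), TVB-3166 had 3 and 2 (25.4% and 26.1%), bleomycin 3 and 5 (22.4% and 23.2%), doxorubicin 3 and 5 (21.9% and 21.5%), palbociclib 3 and 6 (22% and 22.9%) and alisertib 1 and 6 (9.55% and 9.49%). Of the 60 values of members and drugs, 9 calls were lost with this reference, 7 were gained and 7 values turned in direction. These comparisons share the treated libraries with those above, and differ where day-7 cells had themselves moved.

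Short transcripts in general were lower with every drug but ND-646. S100 values are also given from a fit corrected for transcript length, and the part of length in the S100 differences was not tested. Among genes under 1 kb the median was -0.44 with doxorubicin, -0.33 with palbociclib, -0.27 with bleomycin, -0.27 with alisertib, -0.20 with TVB-3166 and 0.06 with ND-646. The share of these short genes called lower was 46.9% with doxorubicin, 42% with palbociclib, 36.4% with alisertib, 35.7% with bleomycin, 32.4% with TVB-3166 and 10.4% with ND-646. The share of members called lower was above that of these short genes with every drug, though with TVB-3166 the count of 4 of 10 lay near it. In the length-corrected fit, S100A16 was still lower with doxorubicin by a log2 fold-change of -2.04 ± 0.09 (SE; edgeR adjusted p = 1.1e-06) and S100A14 with palbociclib by -1.11 ± 0.09 (adjusted p = 4.75e-06). Over the 90 values of members in all 9 comparisons, the correction lost 1 call, that of S100A11 with doxorubicin, gained 6 and turned 7 values in direction. The gained calls were S100A10 with ND-646, palbociclib and alisertib, S100A4 with ND-646, S100A6 with TVB-3166 (0.32, adjusted p = 0.022) and S100A4 in TVB-3166 against ND-646 cells.

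**Figure D3:**
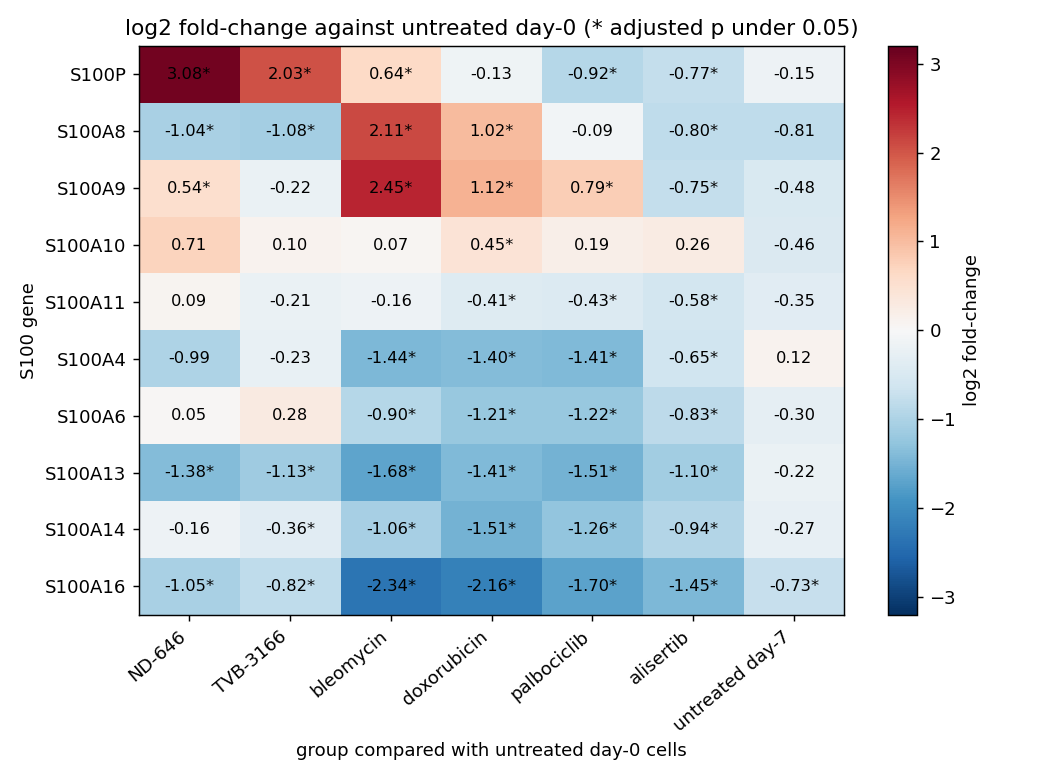
Cells give the log2 fold-change of each of 10 S100 genes (rows) in each drug group and in untreated day-7 cells (columns) against untreated day-0 cells, with an asterisk at an edgeR adjusted p under 0.05. S100A13 and S100A16 are lower with all 6 drugs, and S100P and S100A9 carry both directions.

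S100P, a ligand of RAGE and a partner of ezrin and IQGAP1, was the S100 gene that rose most in the lipogenesis-inhibited cells. Its level was 61.1, 111 and 89.6 CPM in the untreated day-0 libraries and 1305, 428 and 511 CPM in the ND-646 libraries. In TVB-3166 cells it was 370, 341 and 358 CPM. No library of either inhibitor overlapped the untreated libraries, and ND-646 replicate 1 stood far above the rest. The log2 fold-change against day-0 cells was 3.08 ± 0.44 with ND-646 (SE; edgeR adjusted p = 0.000857) and 2.03 ± 0.18 with TVB-3166 (adjusted p = 5.24e-06). Without ND-646 replicate 1 the ND-646 value was 2.42 (adjusted p = 1.59e-05), and with the length correction it was 2.87 ± 0.27. Against untreated day-7 cells the values were 3.24 ± 0.43 and 2.19 ± 0.14.

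S100P was also higher with bleomycin, at 145, 142 and 119 CPM, a smaller log2 fold-change of 0.64 ± 0.20 (edgeR adjusted p = 0.0221). This call was lost without bleomycin replicate 2 (adjusted p = 0.0599) and in the fit of all 24 libraries (adjusted p = 0.0828). Doxorubicin cells, at 82.0, 92.9 and 63.6 CPM, overlapped the untreated cells, and the log2 difference was -0.13 ± 0.20 (adjusted p = 0.632). S100P fell with palbociclib, to 42.1, 59.0 and 37.8 CPM (-0.92 ± 0.21, adjusted p = 0.00385). With alisertib it was 43.0, 66.5 and 43.8 CPM, a log2 fold-change of -0.77 ± 0.22 (adjusted p = 0.0194) that overlapped the day-0 libraries. The alisertib call was lost without day-0 replicate 2 (-0.55), alisertib replicate 1 (-0.66) or alisertib replicate 3 (-0.67), with DESeq2 (adjusted p = 0.051) and in the fit of all 24 libraries (adjusted p = 0.0579).

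In order of mean level, S100P was highest with ND-646 (748 ± 484 CPM), then TVB-3166 (356 ± 14.7), bleomycin (136 ± 14.3), untreated day-0 (87.4 ± 25.2), doxorubicin (79.5 ± 14.8), untreated day-7 (78.1 ± 17.9), alisertib (51.1 ± 13.3) and palbociclib (46.3 ± 11.2). The test did not separate ND-646 from TVB-3166 (adjusted p = 0.262), day-0 from doxorubicin, doxorubicin from day-7 or alisertib from palbociclib cells. The other neighbours in this order differed at an adjusted p under 0.05. By Pearson correlation of log2 CPM over the 24 libraries, among 12608 genes, the 5 genes most like S100P were PCK2 (r = 0.956), NRF1 (0.953), CANT1 (0.946), ARPC1B (0.944) and ACP2 (0.943). These points share groups and the length pattern of ND-646 replicate 1, so the values are a description. PCK2, the mitochondrial phosphoenolpyruvate carboxykinase, had a mean level of 50.4 CPM in day-0 cells, 228 with ND-646, 161 with TVB-3166 and 102 with bleomycin.

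S100A8 and S100A9, the subunits of calprotectin, rose with both DNA-damaging drugs. S100A9 was 78.9, 118 and 99.4 CPM in day-0 cells, 469, 553 and 586 CPM with bleomycin and 205, 238 and 194 CPM with doxorubicin. S100A8 was 11.6, 8.82 and 9.20 CPM in day-0 cells, 40.7, 35.1 and 52.0 CPM with bleomycin and 17.6, 22.3 and 19.8 CPM with doxorubicin. For both genes the 3 groups did not overlap, with bleomycin highest. The log2 fold-change with bleomycin was 2.45 ± 0.17 for S100A9 (edgeR adjusted p = 1.44e-05) and 2.11 ± 0.18 for S100A8 (adjusted p = 4.06e-05). With doxorubicin it was 1.12 ± 0.15 for S100A9 and 1.02 ± 0.15 for S100A8 (adjusted p = 0.000241 and 0.000403). Bleomycin and doxorubicin cells differed from each other for S100A9 (adjusted p = 0.00172) and S100A8 (adjusted p = 0.00779). None of the 8 myeloid markers was in the table, but this absence does not show their levels with either drug.

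S100A9 was higher with palbociclib than in day-0 cells, at 167, 180 and 164 CPM (log2 fold-change 0.79 ± 0.13, edgeR adjusted p = 0.000585). S100A8 was at 8.69, 9.75 and 9.39 CPM, -0.09 ± 0.15 from day-0 cells (adjusted p = 0.624). Both genes were lower with alisertib than in day-0 cells, S100A9 by -0.75 ± 0.15 and S100A8 by -0.80 ± 0.17 on the log2 scale. With ND-646, S100A9 was 169, 143 and 124 CPM (0.54 ± 0.19, adjusted p = 0.0459) and S100A8 was 7.58, 3.48 and 3.55 CPM (-1.04 ± 0.31, adjusted p = 0.0291), on counts of 177, 97 and 101. Both ND-646 calls turned on single libraries. The S100A9 call was lost without day-0 replicate 1 (0.40), day-0 replicate 3 (0.55) or ND-646 replicate 2 (0.55), and the S100A8 call was lost on leaving out any library but ND-646 replicate 1, without which it was -1.50 (adjusted p = 0.000225). With TVB-3166, S100A8 was lower than in day-0 cells, at 4.58, 5.57 and 3.77 CPM (-1.08 ± 0.19, edgeR adjusted p = 0.000594). S100A9 was at 65.1, 96.6 and 91.7 CPM (-0.22 ± 0.17, adjusted p = 0.285).

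The choice of untreated cells mattered for S100A8. Untreated day-7 cells had 4.92, 5.15 and 6.74 CPM, below all day-0 libraries, with a log2 fold-change of -0.81 ± 0.18 that did not pass (adjusted p = 0.0656). Against these day-7 cells, S100A8 was not called lower with ND-646 (-0.22 ± 0.32), TVB-3166 (-0.26 ± 0.19) or alisertib (0.03 ± 0.17), and it was higher with palbociclib (0.74 ± 0.16, adjusted p = 0.00295). S100A9 was higher than in day-7 cells with ND-646 (1.03 ± 0.16, adjusted p = 0.00171), bleomycin (2.94 ± 0.13), doxorubicin (1.62 ± 0.11) and palbociclib (1.28 ± 0.09), and with alisertib it was at -0.25 ± 0.12 (adjusted p = 0.154). Within libraries the ratio of S100A9 to S100A8 counts, not scaled for length, was 10.3 ± 3.29 in day-0 cells, 12.7 ± 1.84 in day-7 cells, 12.8 ± 2.52 with bleomycin, 10.7 ± 0.94 with doxorubicin, 10.3 ± 0.31 with alisertib, 18.4 ± 0.86 with palbociclib, 18.6 ± 5.18 with TVB-3166 and 32.8 ± 9.64 with ND-646. Over the 24 libraries the log2 levels of both genes correlated with r = 0.844. The gene most like S100A8 was GPX3 (r = 0.931), followed by S100A7 (0.906), and the gene most like S100A9 was ITGA5 (0.935), the alpha 5 integrin subunit.

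S100A10 and S100A11 bind annexins, S100A10 as the light chain of the annexin A2 heterotetramer. S100A10 was 49.5, 63.3 and 52.9 CPM in day-0 cells and 86.9, 68.4 and 69.1 CPM with doxorubicin, the 1 drug where it was called higher on the counts as deposited (0.45 ± 0.13, edgeR adjusted p = 0.0149). That call was lost without doxorubicin replicate 1 (0.32, adjusted p = 0.0819) and in the fit of all 24 libraries (adjusted p = 0.193). With the length correction S100A10 was called higher with 4 drugs, doxorubicin (0.65 ± 0.12, adjusted p = 0.00112), ND-646 (0.55 ± 0.19, adjusted p = 0.0327), alisertib (0.39 ± 0.12, adjusted p = 0.0235) and palbociclib (0.37 ± 0.13, adjusted p = 0.0347). Against day-7 cells, at 45.2, 36.0 and 38.4 CPM, S100A10 was called higher with 5 of 6 drugs, from 0.57 ± 0.12 with TVB-3166 to 1.18 ± 0.35 with ND-646. Bleomycin was the exception (0.54 ± 0.21, adjusted p = 0.0559). In ND-646 cells S100A10 was 154, 57.7 and 63.0 CPM, and without replicate 1 the difference from day-0 cells was 0.12 (adjusted p = 0.444).

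S100A11 was 317, 348 and 297 CPM in day-0 cells and fell with alisertib to 231, 219 and 196 CPM (-0.58 ± 0.10, edgeR adjusted p = 0.00163). Smaller falls were called with palbociclib (-0.43 ± 0.11) and doxorubicin (-0.41 ± 0.11), the latter lost without doxorubicin replicate 3 (-0.32, adjusted p = 0.0505) and with the length correction (-0.20, adjusted p = 0.063). Against day-7 cells S100A11 was called with 0 of 6 drugs, the values lying between -0.20 with alisertib and 0.46 with ND-646.

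S100A4, a partner of non-muscle myosin IIA, and S100A6, the calcyclin that binds CACYBP, fell with all 4 drugs that do not target lipogenesis. S100A6 was 922, 1220 and 1064 CPM in day-0 cells, 501, 474 and 407 CPM with palbociclib and 490, 505 and 385 CPM with doxorubicin. The log2 fold-change was -1.22 ± 0.13 with palbociclib (edgeR adjusted p = 4.27e-05), -1.21 ± 0.15 with doxorubicin, -0.90 ± 0.16 with bleomycin and -0.83 ± 0.12 with alisertib. In TVB-3166 cells it was 1449, 1213 and 1216 CPM, a difference from day-0 cells of 0.28 ± 0.13 (adjusted p = 0.0959), and it was higher than in day-7 cells by 0.59 ± 0.10 (adjusted p = 0.000427). In ND-646 cells S100A6 was 1786, 766 and 801 CPM. The difference of 0.05 ± 0.32 turned to -0.45 (adjusted p = 0.0243) without replicate 1.

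S100A4 was 214, 355 and 349 CPM in day-0 cells and 159, 76.5 and 102 CPM with bleomycin (-1.44 ± 0.27, edgeR adjusted p = 0.00195). It was lower by a like amount with palbociclib (-1.41 ± 0.20) and doxorubicin (-1.40 ± 0.18), and by -0.65 ± 0.17 with alisertib, a call lost without day-0 replicate 2 (-0.52), alisertib replicate 2 (-0.63) or alisertib replicate 3 (-0.62) and in the fit of all 24 libraries (adjusted p = 0.0814). With ND-646, at 254, 97.6 and 117 CPM, the fold-change of -0.99 ± 0.35 missed the threshold (adjusted p = 0.0538), and without replicate 1 it was -1.52 (adjusted p = 0.000289). With the length correction it was -1.16 ± 0.22 (adjusted p = 0.00174). TVB-3166 cells, at 315, 226 and 241 CPM, were not separated from day-0 cells (-0.23 ± 0.19, adjusted p = 0.322). Against day-7 cells S100A4 was lower with 6 of 6 drugs, from -0.34 ± 0.12 with TVB-3166 to -1.54 ± 0.22 with bleomycin.

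S100A13, which takes part in the non-classical export of FGF1, fell with all 6 drugs against either untreated group. Its level was 48.5, 67.9 and 62.1 CPM in day-0 cells, 56.0, 45.3 and 50.1 CPM in day-7 cells and at most 33.8 CPM in any drug-treated library. Every treated library was thus below every untreated one. The log2 fold-change against day-0 cells ran from -1.10 ± 0.12 with alisertib to -1.68 ± 0.18 with bleomycin (edgeR adjusted p = 0.000239 and 0.000131), and against day-7 cells from -0.85 ± 0.09 to -1.43 ± 0.16 with the same drugs. With ND-646 it was -1.38 ± 0.27, and all 6 fits with 1 library left out called it. FGF1 itself was low, at 0.280, 0.192 and 0.325 CPM in day-0 cells, and rose with all 6 drugs, by 2.56 ± 0.33 with TVB-3166 to 3.73 ± 0.37 with bleomycin.

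S100A16 fell with all 6 drugs against day-0 cells, most of all with bleomycin, from 971, 1070 and 936 CPM to 256, 156 and 173 CPM (-2.34 ± 0.19, edgeR adjusted p = 3.25e-05). Doxorubicin cells had 236, 234 and 191 CPM (-2.16 ± 0.12). Palbociclib gave -1.70 ± 0.12, alisertib -1.45 ± 0.11 and TVB-3166 -0.82 ± 0.13. Untreated day-7 cells were themselves lower, at 666, 513 and 603 CPM (-0.73 ± 0.12, adjusted p = 0.0438), a call kept in 1 of 6 fits with a library left out and lost without any library but day-0 replicate 1. It was the 1 of 10 members called in that comparison, where 0.198% of all genes were called lower and 0 members were called higher, also at an unadjusted p and with DESeq2. At an unadjusted p 7 members were lower in day-7 cells, and DESeq2 called 6 lower. Against day-7 cells S100A16 remained lower with bleomycin (-1.60 ± 0.18), doxorubicin (-1.41 ± 0.12), palbociclib (-0.95 ± 0.11) and alisertib (-0.69 ± 0.11). For TVB-3166 that difference was -0.09 ± 0.13 (adjusted p = 0.6), and for ND-646 -0.31 ± 0.27 (adjusted p = 0.413). The ND-646 call against day-0 cells, -1.05 ± 0.27 (adjusted p = 0.015), was lost without day-0 replicate 2 (-0.996), ND-646 replicate 2 (-0.88) or ND-646 replicate 3 (-0.89).

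S100A14, which lies beside S100A16 in the cluster and is known from epithelia, had 663, 692 and 642 CPM in day-0 cells and 242, 258 and 194 CPM with doxorubicin. This was a log2 fold-change of -1.51 ± 0.12 (edgeR adjusted p = 2.02e-05), followed by -1.26 ± 0.11 with palbociclib, -1.06 ± 0.15 with bleomycin and -0.94 ± 0.09 with alisertib. With TVB-3166, at 621, 479 and 453 CPM, it was -0.36 ± 0.13 (adjusted p = 0.0328), a call lost without day-0 replicate 2 (-0.33), TVB-3166 replicate 2 (-0.31) or TVB-3166 replicate 3 (-0.27) and in the fit of all 24 libraries (adjusted p = 0.208). ND-646 libraries had 1009, 394 and 406 CPM, so that replicate 1 lay above and the other two below all day-0 libraries. That fold-change was -0.16 ± 0.34 (adjusted p = 0.736), and without replicate 1 it was -0.74 (adjusted p = 0.000439). Over the 24 libraries S100A14 correlated with S100A6 (r = 0.931) and S100A16 (r = 0.896), as a description of libraries that share groups and length pattern.

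Lipogenesis inhibitors were then compared with the other drugs directly, as the mean of ND-646 and TVB-3166 minus the mean of the 4 other drugs in a fit of the 18 treated libraries. Here 6 of 10 S100 genes were higher and 2 lower, against 26.1% and 24% of all genes tested. S100P differed most, with a log2 difference of 2.87 ± 0.18 (edgeR adjusted p = 3.97e-09) and no overlap between the 6 and the 12 libraries. S100A6 was higher by 1.22 ± 0.14, S100A16 by 0.99 ± 0.14, S100A14 by 0.95 ± 0.16, S100A4 by 0.64 ± 0.18 and S100A11 by 0.35 ± 0.11. S100A8 was lower by -1.61 ± 0.16 and S100A9 by -0.72 ± 0.10, with overlap between libraries. In alisertib cells, though, S100A9 was at 52.2, 67.9 and 55.5 CPM, below all ND-646 libraries, and S100A8, at most 6.42 CPM, lay within the range of the ND-646 libraries. S100A10 (0.18 ± 0.18, adjusted p = 0.423) and S100A13 (0.18 ± 0.13, adjusted p = 0.241) did not pass.

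Genes under 1 kb as a whole leaned the same way in this contrast, with a median of 0.27 and 39.4% called higher. With the length correction the same direction was called for all 8 genes, at 2.60 ± 0.12 for S100P, 0.96 ± 0.08 for S100A6, 0.86 ± 0.09 for S100A16, 0.79 ± 0.10 for S100A14, 0.39 ± 0.13 for S100A4 and 0.13 ± 0.06 for S100A11. In that fit 31.3% of all genes were called higher and 23.3% lower. S100A8 was then at -1.87 ± 0.13 and S100A9 at -0.91 ± 0.09. Of these 8, the values of S100A4 and S100A11 moved by over 1.5 times. Without ND-646 replicate 1 in the uncorrected fit S100A11 was at 0.17 (adjusted p = 0.0348) and S100A4 at 0.36 (adjusted p = 0.0334).

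**Figure D4:**
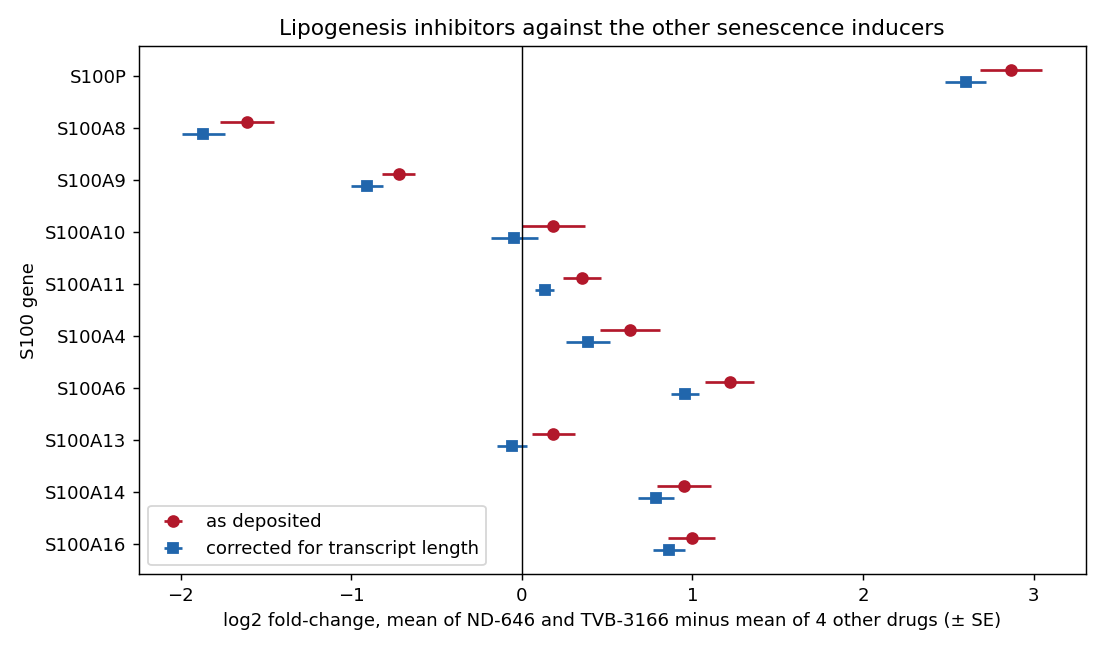
Points give the log2 difference of each of 10 S100 genes between the lipogenesis inhibitors and the 4 other drugs, from the counts as deposited (circles) and corrected for transcript length (squares), with the SE of the fit as bars. S100P lies far to the right in both fits (2.87 and 2.60), and S100A8 and S100A9 lie left of 0.

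TVB-3166 and ND-646 were also compared with each other, and edgeR called 0 of 10 S100 genes in either direction at an adjusted p under 0.05 (0.52% of all genes higher, 0.198% lower). At an unadjusted p, 2 were lower and 0 higher, and DESeq2 called 1 lower. The difference for S100P was -1.06 ± 0.39 (adjusted p = 0.262). Leaving out ND-646 replicate 1 changed this picture, with 4 genes higher and 2 lower in TVB-3166 cells. S100A4 was then higher by 1.28 (adjusted p = 0.00114), S100A6 by 0.73, S100A13 by 0.62 and S100A16 by 0.61, and S100P was lower by -0.39 (adjusted p = 0.0249) and S100A9 by -0.65 (adjusted p = 0.0214). Same-numbered libraries of both inhibitors deviated together, and the fit with the replicate number as a block also called 0 genes, but with the length correction added it called 4 higher and 2 lower.

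Other S100 genes in the table were S100A2, S100A3, S100A5 and S100A7, all near or below 1 CPM in day-0 cells, of 11 listed. S100A7 (psoriasin), an antimicrobial protein of inflamed epithelia, had 0.686, 0.479 and 0.177 CPM in day-0 cells, on counts of 27, 15 and 6. It rose with bleomycin to 5.31, 6.96 and 9.88 CPM (log2 fold-change 4.02 ± 0.42, edgeR adjusted p = 0.0001) and with doxorubicin to 2.19, 2.54 and 2.24 CPM (2.36 ± 0.38, adjusted p = 0.000741). Thus 1 of these 4 genes was called higher with each (all genes 24.1% and 23.7%). Called lower were 3 of the 4 with alisertib (all genes 19.6%), S100A5 (-1.31 ± 0.31), S100A3 (-1.24 ± 0.34) and S100A2 (-1.03 ± 0.30). With ND-646 2 were lower (all genes 18.8%), S100A3 (-1.32 ± 0.43) and S100A2 (-1.26 ± 0.39). With palbociclib S100A5 (-1.78 ± 0.31) and S100A3 (-1.04 ± 0.35) were lower (all genes 27.2%). S100A2 was lower with bleomycin (-1.51 ± 0.40) and doxorubicin (-0.82 ± 0.30), where 25.3% and 24.8% of all genes were lower. These levels were near the floor, with S100A3 at 0.144 to 0.421 CPM with ND-646 and S100A2 at 0.160 to 0.457 CPM with bleomycin. The fused-type relatives TCHH and TCHHL1, which carry an S100 domain in a long protein of the hair follicle, were 2 of 7 listed in the table. TCHHL1 rose with doxorubicin (3.21 ± 0.24), bleomycin (2.46 ± 0.29), palbociclib (2.14 ± 0.23) and ND-646 (1.02 ± 0.26). TCHH rose with doxorubicin (2.59 ± 0.27) and bleomycin (2.06 ± 0.46) and fell with alisertib (-1.56 ± 0.50). In ND-646 and in untreated day-7 cells against day-0 cells, only 1 of these 2 genes had counts high enough to be tested.

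Of 13 listed intracellular or secreted partners of S100 proteins, 12 were in the table. Called higher and lower were 4 and 2 with ND-646, 5 and 2 with TVB-3166, 4 and 1 with bleomycin, 4 and 2 with doxorubicin, 4 and 2 with palbociclib and 2 and 2 with alisertib. Among all genes the shares higher and lower were 19.1% and 18.8% with ND-646, 27.4% and 27.7% with TVB-3166, 24.1% and 25.3% with bleomycin, 23.7% and 24.8% with doxorubicin, 26% and 27.2% with palbociclib and 17.7% and 19.6% with alisertib, so that several of these counts lay near the background. CACYBP, the calcyclin-binding protein, was 279, 240 and 247 CPM in day-0 cells and fell with all 6 drugs, from -0.67 ± 0.09 with alisertib to -1.09 ± 0.11 with TVB-3166. ANXA2 rose with doxorubicin (0.72 ± 0.10), ND-646 (0.67 ± 0.21), palbociclib (0.55 ± 0.10), alisertib (0.34 ± 0.08) and TVB-3166 (0.24 ± 0.09). ANXA1 rose with bleomycin (1.19 ± 0.35), doxorubicin (1.07 ± 0.24) and palbociclib (0.79 ± 0.24). ANXA6 went the other way, at 484 to 556 CPM in day-0 cells. With ND-646 it was at 292 to 429 CPM, with doxorubicin at 328 to 385 and with palbociclib at 311 to 361. Bleomycin libraries, at 370 to 495 CPM, overlapped those of day 0. Partners of S100P differed, in that IQGAP1, a scaffold of the cell cortex, rose with ND-646 (0.65 ± 0.18) and TVB-3166 (0.50 ± 0.10) and also with bleomycin (0.38 ± 0.11), while EZR, which links actin to the membrane, rose with TVB-3166 (0.48 ± 0.11) and was at 0.37 ± 0.17 with ND-646 (adjusted p = 0.116). MYH9, the heavy chain bound by S100A4, rose with bleomycin (0.79 ± 0.16) and doxorubicin (0.44 ± 0.14).

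Of 6 listed receptors, 5 were in the table. MCAM, a melanoma cell adhesion molecule reported to bind S100A8 and S100A9, was 3.36, 5.85 and 6.86 CPM in day-0 cells and 38.5, 28.8 and 50.2 CPM with bleomycin (2.88 ± 0.28, edgeR adjusted p = 7.92e-05). It also rose with doxorubicin (2.49 ± 0.26), alisertib (1.53 ± 0.25) and palbociclib (1.29 ± 0.24). ALCAM, another adhesion receptor of this group, was 154, 99.8 and 111 CPM in day-0 cells and rose in both lipogenesis-inhibited groups, to 226, 280 and 288 CPM with ND-646 (1.11 ± 0.20) and 223, 243 and 241 CPM with TVB-3166 (0.96 ± 0.14). AGER, the gene of RAGE, stayed at or below 1.09 CPM in every library, and was called higher with TVB-3166 (1.45 ± 0.48), doxorubicin (1.37 ± 0.48) and alisertib (1.75 ± 0.46) on day-0 counts of 3, 7 and 11.

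Among other EF-hand calcium sensors, 11 of 12 listed were in the table. Called lower were 2 with ND-646, 4 with TVB-3166, 6 with bleomycin, 7 with doxorubicin, 6 with palbociclib and 9 with alisertib, and at most 2 were higher with any drug. The counts lower with ND-646 and TVB-3166 were near the shares of all genes, and those with the other 4 drugs were above them.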

How the data were processed

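Reads were paired-end, from an mRNA kit by the labels and a total RNA kit by the methods, both stranded. The authors aligned them to GRCh37 with HISAT2, used StringTie and DESeq2, and deposited unnormalized whole-number counts per gene, the lowest being 1. Counting settings and use of strand are not given in the sources used here. All genes were tested on these counts with edgeR 4.0.16 under R 4.3.3 (filterByExpr, TMM, glmQLFit, glmQLFTest, 2-sided), each fit holding the groups compared, and p-values were adjusted by Benjamini-Hochberg over all genes tested. An exact permutation test of 3 against 3 libraries cannot go below p = 0.1. Log2 CPM used a prior count of 2, and lengths are of GENCODE canonical transcripts. Members and lists were chosen with earlier results of these data known, and named genes are members, listed genes and the 5 genes most like S100P, S100A8 or S100A9. Alternatives were DESeq2 1.42.0, other size factors, filters and thresholds, one fit of 24 libraries, day-7 cells as reference, a replicate block and leaving out each library, and the length correction was added after the data were seen. The main test of TVB-3166 against ND-646 was unpaired, and the labels name no pairing. Deviations from group means of same-numbered libraries of these groups correlated (0.411, 0.251 and 0.334). In each other comparison at least 1 correlation was under 0.1. On counts simulated for ND-646 against day-0 cells, edgeR called 52 of 110 genes changed 2-fold and 83 of 90 changed 4-fold, with 10 false calls among 13604 genes. The simulated counts had no trend with transcript length, so these rates do not cover the pattern of ND-646 replicate 1.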

Additional observations from a re-analysis of the deposited data

How the results depend on the processing

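Depth limits S100A8 most, with counts of 97 to 177 in ND-646 libraries, and 3 libraries per group limit the precision, most of all in ND-646 cells. Of 90 values of members, RLE size factors and a minimum of 10 counts changed 0 calls, and DESeq2 changed the side of the threshold of 9. RLE size factors and DESeq2 moved the median of all genes by less than 0.1 on the log2 scale. The length correction moved it further with doxorubicin, from 0.009 to -0.12. In that corrected fit 17.7% of all genes were called higher and 33.2% lower. The causes of the changes listed here were not tested.

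Counts of members called moved as follows. DESeq2 gave 2 higher with TVB-3166, 6 lower in day-7 cells and 1 lower in TVB-3166 against ND-646. Without a filter there were 1 higher with ND-646 and 0 lower in day-7 cells. The rule of a fold of at least 2 with an unadjusted p gave 1 higher with ND-646, 2 lower with TVB-3166, 0 higher with palbociclib, 2 lower with alisertib, 0 lower in day-7 cells, 1 lower in TVB-3166 against ND-646, and 2 higher and 1 lower in lipogenesis inhibitors against other drugs. The fit of all 24 libraries gave 2 lower in TVB-3166 against ND-646. It lost 6 calls (S100P with bleomycin and alisertib, S100A4 with alisertib, S100A10 with doxorubicin, S100A14 with TVB-3166 and S100A16 in day-7 cells) and gained 5. Against day-7 cells there were 3 higher and 2 lower with TVB-3166, 3 higher with palbociclib and 1 higher with alisertib. The length correction gave 2 higher with TVB-3166, 2 with palbociclib, 1 with alisertib and 1 in TVB-3166 against ND-646.

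With the replicate number as a block, 1 member was higher with ND-646 and 5 were lower in day-7 cells. In TVB-3166 against ND-646 the block changed 0 calls alone, while with the length correction 4 were higher and 2 lower. The block turned S100A6 with ND-646 to -0.063 and S100A8 in TVB-3166 against ND-646 to 0.015. The labels do not say that the numbers pair the libraries.

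The day-7 reference turned S100A14 with ND-646 to 0.13, S100A9 and S100A11 with TVB-3166 to 0.27 and 0.15, S100A11 with bleomycin to 0.21, S100P with doxorubicin to 0.051, and S100A8 with palbociclib and alisertib to 0.74 and 0.034. The length correction turned S100A6 and S100A11 with ND-646 to -0.14 and -0.036, S100P with doxorubicin to 0.10, S100A8 with palbociclib to 0.10, S100A8 in TVB-3166 against ND-646 to 0.19 (0.19 with the block, where S100A14 was at 0.0034), and S100A10 and S100A13 in the contrast of inhibitors to -0.045 and -0.057.

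Leaving out 1 library at a time gave ranges that crossed 0 for values that were near 0 or set by ND-646 replicate 1. With ND-646 these were S100A6 (-0.45 to 0.25), S100A11 (-0.25 to 0.24) and S100A14 (-0.74 to 0.066). S100A10 ranged from -0.030 to 0.21 with TVB-3166, -0.089 to 0.29 with bleomycin and -0.0065 to 0.31 with palbociclib. S100P ranged from -0.33 to 0.088 with doxorubicin and -0.36 to 0.063 in day-7 cells, S100A8 from -0.15 to 0.047 with palbociclib and S100A4 from -0.084 to 0.24 in day-7 cells. In TVB-3166 against ND-646 the ranges were -0.25 to 0.41 for S100A8, -0.47 to 0.044 for S100A11 and -0.44 to 0.38 for S100A14, and in lipogenesis inhibitors against other drugs -0.13 to 0.31 for S100A10 and -0.013 to 0.27 for S100A13. Counts of members, higher then lower, ranged over 1 to 2 and 1 to 6 with ND-646, 1 to 2 and 3 to 6 with TVB-3166, 2 to 3 and 5 to 5 with bleomycin, 2 to 3 and 5 to 6 with doxorubicin, 0 to 0 and 7 to 9 with alisertib, 0 to 0 and 0 to 2 in day-7 cells and 0 to 4 and 0 to 2 in TVB-3166 against ND-646, and stayed at 1 and 7 with palbociclib and at 6 and 2 in the contrast of inhibitors.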
